A study of Homo sapiens with 8 samples.

Results

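U87 cells that had received 50 µM of a ligand for the DNA minor groove, without radiation, were compared with untreated U87 cells. U87 is an established human glioma cell line. The comparison takes the arrays titled for the ligand and those titled as control, 4 of the 8 in the series. The other 4 arrays come from cells irradiated with 8.5 Gy, with the ligand given 1 h earlier or without it. All cells had been in culture plates for 24 h when treatment began, and RNA was prepared after a further 4 h. RNA was amplified and labelled with Cy3, 1 sample per array. The labels name neither the ligand nor a vehicle for the control.

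Minor groove ligands are small molecules that fit into the narrower of the grooves of DNA without opening the helix, usually along stretches rich in A and T. Proteins that use the same groove include the TATA-binding protein, which helps to place RNA polymerase II at many promoters. Such ligands are also known to interfere with DNA topoisomerases, the enzymes that relieve twist ahead of a polymerase. The comparison asks what the ligand does to gene expression by itself.

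Ligand and control each had 1 array of design A and 1 of design B. The 19700 probes of one design are not on the other, so the 2 ligand arrays are not replicates of any probe, and neither are the 2 control arrays. No replicate error, SD or p-value can be given for a probe, and the number of arrays limits the precision of every value below. No gene is paired with a probe in the files used here, and a search of the RefSeq gene table for the 39400 identifiers returned 0 matches. The 26 gene lists drawn up for this work, with 440 genes among them, could therefore not be measured, nor could the markers of glioma cells. Differences are given by probe and by groups of probes.

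Values are deposited Cy3 intensities on the log2 scale. Quantile normalization over a design's 4 arrays gave those arrays one common distribution. A probe passed when its intensity reached the median of its array on the ligand array, the control array or both. It was counted as higher or lower with ligand when the normalized log2 difference was at least 1, which is 2-fold. These words describe a size, not a test.

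With ligand, 1739 probes of design A were at least 2-fold lower and 861 at least 2-fold higher, together 21.5% of the 12084 that passed. On design B, 84 were lower and 282 higher, together 3.37% of 10871. Design A was thus mostly lower and design B mostly higher, with 33.1% and 77.0% of the counted probes on the higher side. Under cyclic loess the design A share was 16.4%, and it was 21.4% once a running median along probe number had been subtracted. It was 39.98% after normexp with an offset of 16 and 38.7% among probes that reached the median on both arrays. With each array centred and scaled by its own median and median absolute deviation, it was 49.2% at a score difference of 1. The unit of that score was 0.639 on the log2 scale for ligand and 0.660 for control. This last share therefore rests on a smaller step than 2-fold. The 2 designs also differed in spread. The median absolute difference between ligand and control over all probes was 0.48 for design A and 0.20 for design B, on the log2 scale. Within 0.5 of no difference lay 51.6% of the probes of design A and 87.8% of those of design B. In irradiated cells, ligand plus radiation minus radiation, measured on other arrays, had median absolute differences of 0.23 on design A and 0.16 on design B.

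**Figure D1:**
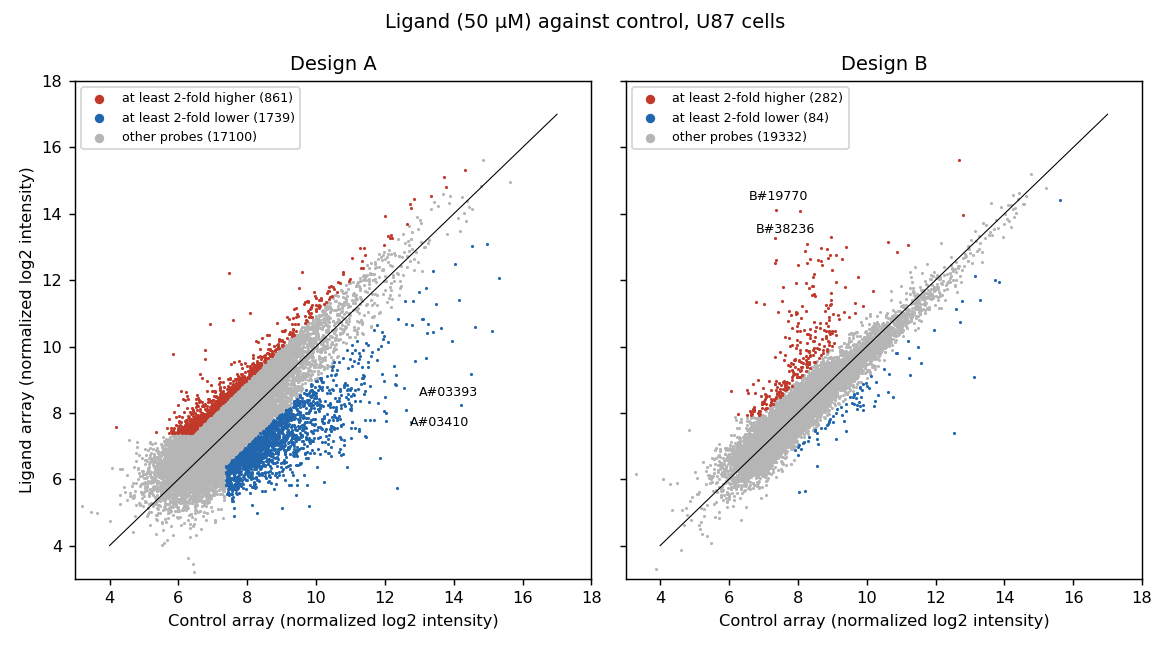
Normalized log2 intensity of each probe on the ligand array (vertical axis) against the control array (horizontal axis), for designs A and B. Each point is 1 probe; the line marks equal levels. On design A the 1739 lower probes form a broad band below the line, and on design B the 282 higher probes stand above it.

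Larger differences were also unequal in direction. At 4-fold or more, design A held 23 higher and 414 lower probes, 0.19% and 3.43% of those that passed. Design B held 88 higher and 9 lower at 4-fold, or 0.809% and 0.0828%. At 8-fold or more, design A held 6 higher and 87 lower probes, which are 0.0497% and 0.72% of those that passed. Design B held 44 higher and 2 lower probes at 8-fold, or 0.405% and 0.0184%. The 1% and 99% points of the difference were -2.52 and 1.44 on design A, against -0.84 and 1.33 on design B. The median difference of all probes was 0.12 for design A and -0.04 for design B. On design A the median therefore sat slightly above equality while the longer tail lay below it, and with cyclic loess that median was 0.02.

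Most of the count on design A came from probes that reached the array median on a single array. Among the 7618 probes of design A that reached the median on both arrays, 362 were higher and 573 lower, or 12.3%. Among 2234 that reached it on the control array only, 1166 were lower, which is 52.2%. Among 2232 that reached it on the ligand array only, 499 were higher, which is 22.4%. A probe that passes through only one array can be counted in only one direction, so these last shares say nothing about direction. On design B the probes bright on both arrays gave 159 higher and 54 lower out of 8827, or 2.41%. The mostly higher split of design B and the mostly lower split of design A were both present among probes that reached the median on both arrays compared.

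Named here are the 2 largest rises and the 2 largest falls among all probes, of either design, that reached the array median on both arrays. Both rises were on design B. B#19770 had an intensity of 20132 on the ligand array, against 243 on the control array. On the arrays with radiation it had 374 with ligand and 287 without. The normalized levels were 14.08 with ligand and 8.06 in control, a log2 difference of 6.02. The probe moved into the brightest 1% only on the ligand array, at the 99.9 percentile, and stood at the 56.2 percentile in control. Neither irradiated array had that brightness, and the log2 difference between them was 0.27.

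B#38236 showed the same pattern. It had an intensity of 10102 with ligand, against 279 in control, and 391 with ligand plus radiation, against 311 with radiation. Its normalized level was 13.09 with ligand and 8.26 in control, a log2 difference of 4.84, while the difference in irradiated cells was 0.22. Of its 20 nearest probes by number, 12 passed the intensity filter and 0 were counted in either direction. Around B#19770, 2 of 20 neighbours were higher, and both were at least 8-fold higher, while the median difference of the 20 was 0.06. Most probes beside it were thus near equality. The 985 probes numbered 19348 to 20550, which include B#19770, held 7 of the 44 extreme rises.

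Both falls were on design A, and their numbers lie close together. A#03410 had an intensity of 244 with ligand, against 21227 in control, a normalized log2 difference of -5.97. It stayed bright in irradiated cells, at 9486 with ligand and 9583 without, so only the ligand array was low. A#03393 had 441 with ligand and 24452 in control, a log2 difference of -5.32. In irradiated cells it had 4819 with ligand and 7095 without, a log2 difference of -0.90 in the same direction. Both probes were in the brightest 1% of the control, radiation and ligand plus radiation arrays. Of the 20 neighbours of A#03410, 2 were higher and 2 lower, and of those of A#03393, 1 was higher and 3 lower. None of these neighbours was 8-fold different.

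The 87 probes of design A that were at least 8-fold lower were described by their levels on all 4 arrays of the design. Their median intensity was 124 with ligand, against 1981 in control, and 330 with ligand plus radiation, against 334 with radiation. The normalized medians were 7.19 with ligand and 10.73 in control, and 8.38 and 8.34 in irradiated cells with and without ligand. The ligand array was therefore the lowest and the control array the highest at the median, with the irradiated arrays in between. Control stood at least 2-fold above each of the other 3 arrays at 71 of the 87 probes (81.6%). The ligand array stood at least 2-fold below each of the other 3 at 43 of them (49.4%), and a probe can belong to both groups. These positions rest on the same ligand and control arrays that chose the probes, so they are descriptions of levels. With both arrays at or above the median 36 of the 87 remained. The others passed the filter only through the control array, where they were high.

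The 44 probes of design B that were at least 8-fold higher were described in the same way. Their intensities with ligand ran from 1935 to 20379 with a median of 5774, against 96.9 to 589 with a median of 280.3 in control. The medians on the arrays with radiation were 428 with ligand and 386 without. Normalized, these medians were 12.25 with ligand, 8.26 in control, 8.64 with ligand plus radiation and 8.60 with radiation. The ligand array stood at least 2-fold above each of the other 3 arrays at 39 of the 44 probes (88.6%). At the rest, 1 or both irradiated arrays came within 2-fold of the ligand array or above it. Over all 282 higher probes of design B the ligand array stood apart in this way at 126 (44.7%). The 8-fold distance from control is fixed by the choice of the 44 probes, and with both arrays at or above the median 32 of them remained, so these positions too are descriptions.

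**Figure D2:**
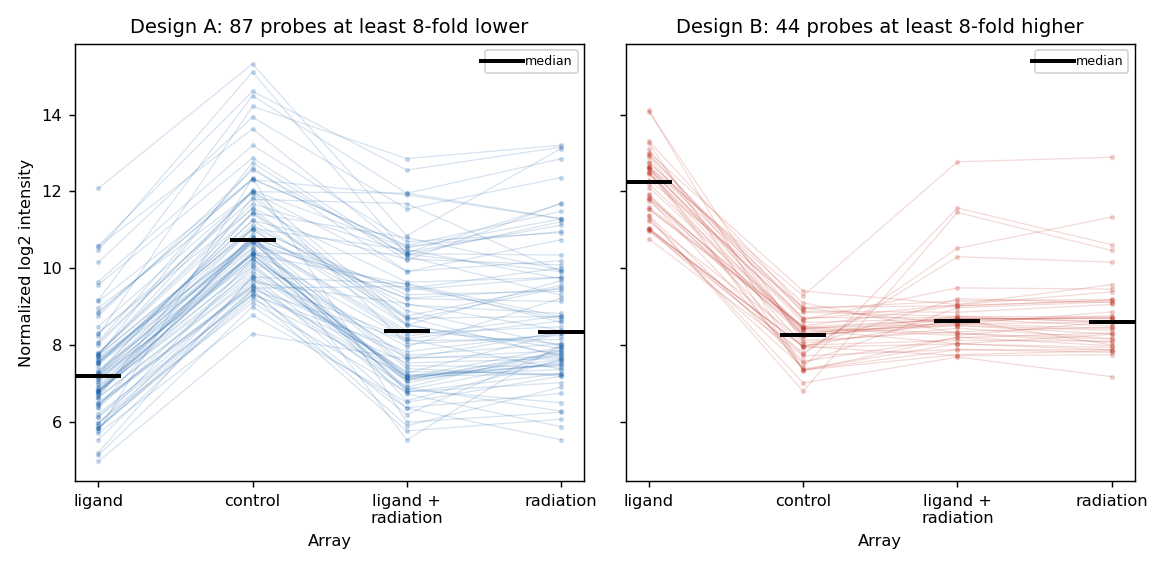
Normalized log2 intensity (vertical axis) on the 4 arrays of a design for the 87 probes at least 8-fold lower with ligand on design A and the 44 at least 8-fold higher on design B. Each thin line is 1 probe and the black bar is the median; on design B the median was 12.25 on the ligand array and between 8.26 and 8.64 on the other 3.

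Ligand plus radiation minus radiation measures the same ligand on other arrays. Their intensities were not in the difference or the filter that chose these probes, but they entered the quantile normalization before it. With each pair of arrays normalized alone, 42 probes of design B were at least 8-fold higher, of which 1 was at least 2-fold higher in irradiated cells. On design A, 65 were then at least 8-fold lower, of which 8 were at least 2-fold lower there. Of the 44 extreme rises on design B, 0 were at least 2-fold higher in irradiated cells, which allows a share of up to 6.82% by the limit of 3 counts and 8.04% by the exact 95% bound. Their median difference there was 0.01, and 24 of the 44 were above 0 (54.5%, against 47.0% of all that had passed). Of all 282 higher probes on design B, 6 were at least 2-fold higher with radiation (2.13%, exact Clopper-Pearson 95% interval 0.785% to 4.57%), with a median difference of 0.0005. Among all 10871 probes that had passed, 78 were higher in irradiated cells (0.718%). These intervals and limits cover counting error over probes only, and probes on 1 array are not independent.

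For the falls on design A the same arrays were read. Of the 1739 lower probes, 85 were at least 2-fold lower with ligand in irradiated cells (4.89%, interval 3.92% to 6.01%), but 80 were at least 2-fold higher there (4.60%). Their median difference was -0.03. Of the 414 probes at least 4-fold lower, 36 were 2-fold lower with radiation (8.70%, interval 6.16% to 11.8%) and 23 were 2-fold higher. Of the 87 at least 8-fold lower, 10 were 2-fold lower with radiation (11.5%, interval 5.65% to 20.1%) and 3 were 2-fold higher, with a median of -0.28 and 59 of 87 below 0. Over all 12084 probes that had passed, 216 were at least 2-fold lower in irradiated cells (1.79%) and 234 at least 2-fold higher (1.94%). Of all that had passed, 50.7% were below 0, and the median was -0.006. The 3 groups are nested, and the intervals cover only counting error over probes that are not independent, so they do not compare the groups. At most of the 87 largest falls the ligand difference in irradiated cells was under 2-fold.

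The other groups were read in the same way. On design A, 20 of the 861 higher probes were at least 2-fold higher with ligand in irradiated cells (2.32%, interval 1.42% to 3.56%), against 1.94% of all that had passed, and their median was 0.009. On design B, 8 of the 84 lower probes were also at least 2-fold lower in irradiated cells (9.52%, interval 4.20% to 17.9%), against 0.69% of all that had passed. Their median difference was -0.16, and 54 of the 84 were below 0 (64.3%, against 52.9% of all that had passed). Of the 84, 2 were at least 2-fold higher (2.38%, against 0.718% of all that had passed). Of the 9 probes of design B at least 4-fold lower, 0 were 2-fold lower in irradiated cells and 1 was 2-fold higher, with a median of 0.05. Neither of the 2 at least 8-fold lower reached 2-fold. Of the 23 probes of design A at least 4-fold higher, 2 were 2-fold higher in irradiated cells and 1 was 2-fold lower. Of the 6 at least 8-fold higher, 1 was 2-fold higher. Among all 861 and 282 higher probes of designs A and B, 11 and 3 were 2-fold lower with ligand there (1.28% and 1.06%). The shares of all that had passed were 1.79% and 0.69%. With 1 array per condition, none of these shares can be set against a replicate error.

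**Figure D3:**
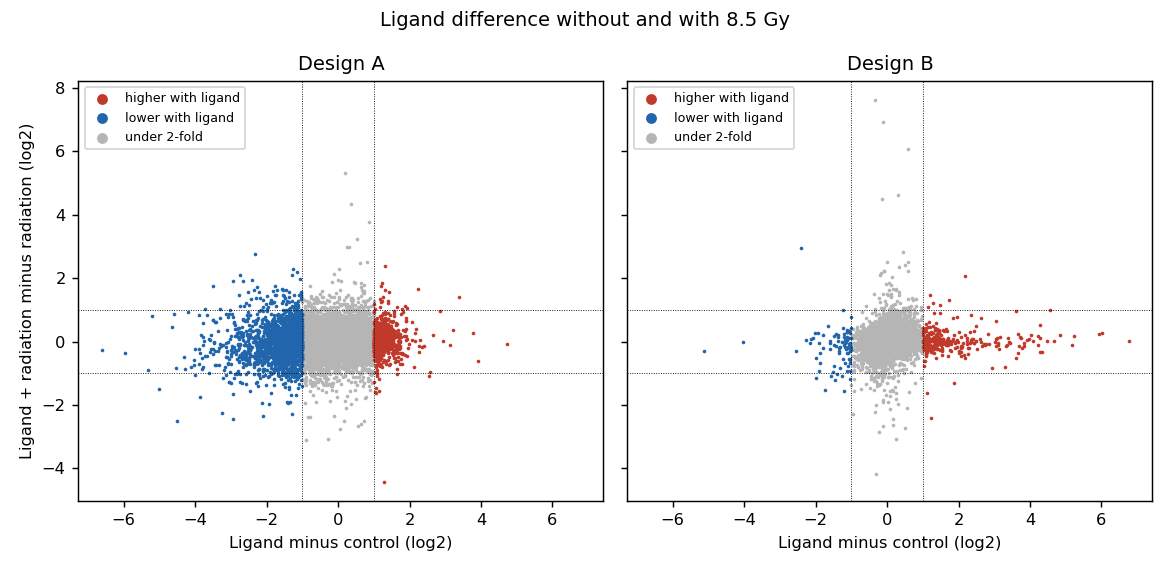
Ligand plus radiation minus radiation (vertical axis, log2) against ligand minus control (horizontal axis, log2) for the probes that passed on designs A and B; each point is 1 probe and dotted lines mark 2-fold. On design B the rises with ligand alone extend to the right along the line of no difference in irradiated cells. There 0 of the 44 largest reached 2-fold upward, against 0.718% of all 10871 probes that had passed.

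Brightness was taken from the 2 irradiated arrays of each design, which are outside the comparison, and the probes were split into 10 equal classes. On design A the share at least 2-fold lower was 8.48% in the dimmest class and 12.7% in the brightest, and the share at least 2-fold higher was 5.99% and 8.63%. The median difference was -0.003 in the dimmest class and 0.30 in the brightest. Without the intensity filter, 88 probes of design A were 8-fold lower, of which 36 lay in the brightest class and at most 8 in any other. On design B the share at least 2-fold higher was 0.355% in the second dimmest class and 3.05% in the second brightest. The 8-fold rises of design B, 45 without the filter, were most frequent in the eighth class, with 13. The median difference on design B was -0.10 in the brightest class and -0.007 in the class nearest to equality.

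The direction of the counted probes on design A varied along probe number. In 20 blocks of 985 probes in order of number, with gaps in the numbers, the count lower with ligand ran from 34 to 174. The count higher ran from 22 to 93. The share on the higher side ran from 14.7% in the second block to 73.2% in the last, and it passed 50% in 4 of the 20 blocks. The median difference per block ran from -0.11 to 0.46. The 8-fold falls were also unequal, with 60 of 87 in the first 10 blocks. On design B the number of higher probes per block ran from 5 to 26 and of lower probes from 0 to 9. More higher than lower probes were held by 19 of 20 blocks. The 8-fold rises of design B were unequal too, from 0 to 7 per block, with 7 of 44 in block 6. What probe number stands for on the slide is not given in the sources used here, and its part in the counts was not tested beyond the running-median removal given above.

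**Figure D4:**
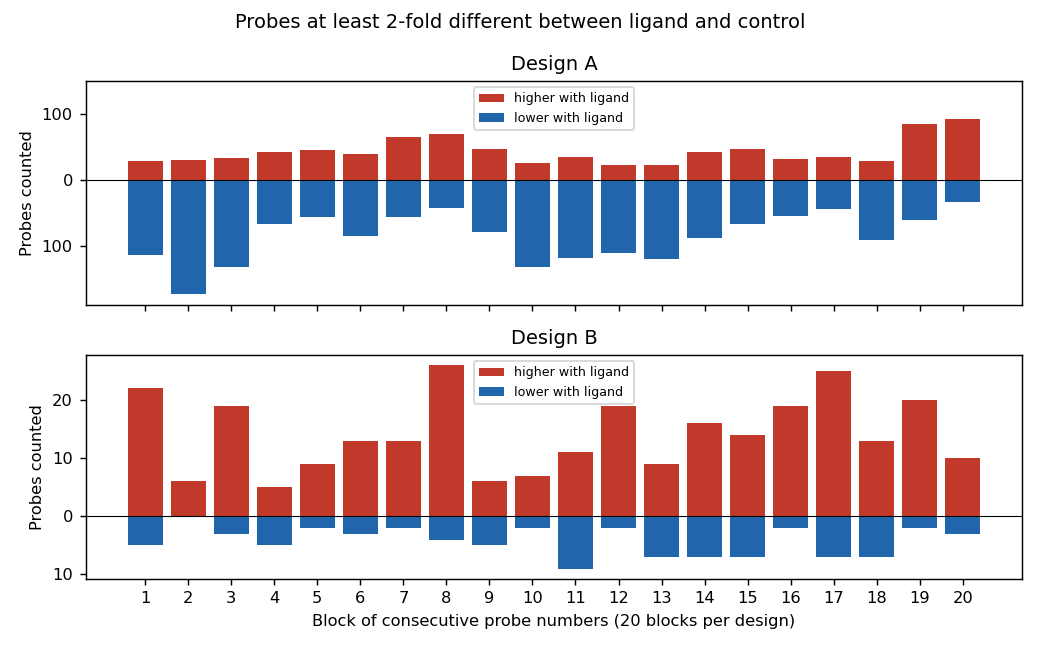
Number of probes at least 2-fold higher (red, upward) and lower (blue, downward) with ligand in 20 blocks of probes per design, in order of probe number. Blocks hold nearly equal numbers of probes, but the numbers have gaps, so the blocks span unequal number ranges. On design A the lower probes run from 34 to 174 per block, and on design B 19 of 20 blocks hold more higher than lower probes.

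The arrays of one condition differed in overall brightness between designs, and this shifted the ligand minus control differences in the authors' deposited scores. The median intensity was 140.0 with ligand and 214 in control on design A, and 246 with ligand and 221 in control on design B. The medians on the log2 scale differed between designs A and B by -0.81 for ligand but by only -0.05 for control. The deposited score of a probe equalled its log2 intensity minus a median, divided by a median absolute deviation, both taken over the 39400 probes of designs A and B of that condition together. This rule returned every deposited score of all 8 arrays within 5e-05. The pooled median was 7.56 for ligand and 7.77 for control, and the pooled deviation 0.699 and 0.638. Scores built from each array alone differed from the deposited ones by up to 1.68 for the ligand array of design A and up to 1.94 for that of design B.

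**Figure D5:**
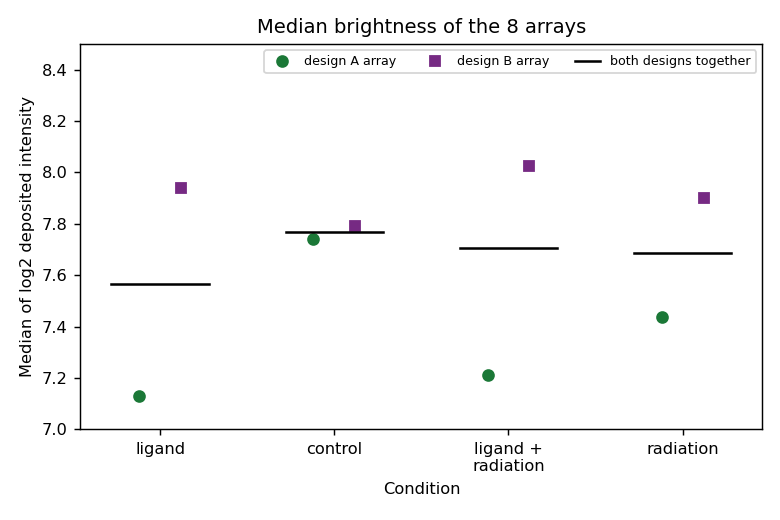
Median log2 deposited intensity of the 8 arrays by condition (circles, design A; squares, design B; bars, both designs together). The ligand arrays lie 0.81 apart and the control arrays 0.05 apart, and the bar is the centre that the deposited scores use.

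Pooling placed the ligand array of design A below its centre and that of design B above it. The median score was -0.62 for ligand and -0.05 for control on design A, and 0.54 for ligand and 0.03 for control on design B. The median difference in score, ligand minus control, was therefore -0.43 on design A and 0.50 on design B. A score difference above 0 was found for 30.5% of the design A probes and 89.0% of the design B probes. When each array was instead centred and scaled by its own median and deviation, these shares were 56.8% and 51.8%. At a score difference of 1, which is not 2-fold, the authors' scores gave 394 higher and 4137 lower probes on design A, and 1506 higher and 74 lower on design B. Scaling each array alone gave 2424 higher and 2505 lower on design A, and 761 higher and 226 lower on design B.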

How the data were processed

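The 8 Cy3 arrays were grouped by the sample titles, and their design was read from the letter in the probe identifiers. Each file holds 1 linear intensity per probe, as deposited by the authors. The sources used here do not state the scanner, the image software or how background and repeat spots were treated, and no background or flag column is in the files used here. The authors also deposited a score per probe, treated in the text. On design B, 2 probes with a value of 0.001 on 1 array were left out. The intensities were quantile normalized on the log2 scale with limma 3.58.1 in R 4.3.3, and counts were made with pandas 2.3.3. Because no background columns were present, the filter used array medians. The counting was tested on simulated data. The named probes were the 2 largest rises and 2 largest falls over both designs with both arrays at or above the median. The members, lists and rules were chosen with earlier results of these data known, and the comparison with irradiated cells and the brightness classes were added after seeing the data. Alternatives were median scaling, cyclic loess, quantile normalization within each pair of arrays, normexp with offsets of 50 and 16, 3 other filters, a log2 threshold of 1.5, removal of a running median over 501 probes and the deposited scores. Scores scaled within each array were added after seeing the data. No p-value was computed.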

Additional observations from a re-analysis of the deposited data

How the results depend on the processing

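With 1 array per condition and design, no alternative could leave out a replicate. No paired analysis was possible because the samples of a condition share no probes. Of the 24 recomputed totals of counted probes, 15 stayed within 1.5 times the reported one. On design A, against 2600, the total was 935 with both arrays at or above the median, 1006 at a log2 threshold of 1.5, 4531 with the authors' scores and 4929 with each array scaled by its own median and deviation, a setting added after seeing the data. On design B, against 366, it was 213 and 163 under the same filter and threshold, 573 after normexp with an offset of 16, 1580 with the authors' scores and 987 with each array scaled alone. A stricter filter or threshold counts fewer probes by construction. The score totals were counted at a score difference of 1. This is not a fixed step on the log2 scale, because ligand and control were divided by different deviations. Each unit was smaller than 1 on the log2 scale. With the authors' scores the unit was 0.699 on the log2 scale for ligand and 0.638 for control. With each array scaled alone it was 0.639 and 0.660 on design A, and 0.618 and 0.610 on design B. What part the step, the centring and the scaling each had was not tested, nor was the cause of the other shifts. With both kinds of score left aside, the share on the higher side lay between 12.6% and 39.98% on design A, and between 74.3% and 85.3% on design B. With the authors' scores it was 8.70% and 95.3%, and with each array scaled alone 49.2% and 77.1%. The split of design A was nearly even under that last setting, but at a smaller step than 2-fold. Whether the scaling or the smaller step moved that share was not tested. The number of 8-fold rises on design B ran from 32 to 57, of which 0 to 2 were 2-fold higher in irradiated cells. The number of 8-fold falls on design A ran from 36 to 168, of which 4 to 19 were 2-fold lower there. For the named probes the log2 difference ran from 5.95 to 6.45 at B#19770, from 4.83 to 5.20 at B#38236, from -6.15 to -5.83 at A#03410 and from -5.50 to -5.18 at A#03393.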

Other observations

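The brightest probes changed places more between ligand and control than between the irradiated arrays. Of the 200 brightest probes of the ligand array of design A, 132 were among the 200 brightest in control, and on design B 144 were. For ligand plus radiation and radiation the numbers were 162 on design A and 159 on design B. These are counts on single arrays, with no replicate to set them against.

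The decimals of the deposited intensities, rounded to 0.01, differed between arrays. Whole numbers made up 18.7% of the values on the ligand array of design A and 4.20% on its control array, but 2.66% on the ligand array and 12.6% on the control array of design B. Values that were whole or ended in 0.5 had a median intensity of 104 on the ligand array of design A, against 166 for the other values of that array. On the radiation array of design A these medians were 212 and 162, the other way round. On the remaining 6 arrays such values were dimmer than the others.

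Neighbouring probes of design A had weakly similar ligand minus control differences, with r = 0.074 between consecutive probes and 0.089 between probes 10 rows apart, over 19700 probes that share the same arrays. For ligand plus radiation minus radiation these values were -0.0001 and 0.013. On design B they were 0.023 and 0.035 for ligand minus control and 0.052 and 0.046 for ligand plus radiation minus radiation. The correlations are weak and describe these arrays only.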
